A study of Daphnia magna with 12 samples.

Results

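Among 20266 genes with at least 10 reads in whole Daphnia magna, a freshwater crustacean, 71 were low after cholinium chloride while the imidazolium salts left their group medians nearer to control. They were chosen on CPM, read counts per library size scaled with TMM factors, taking the median of the 3 libraries of each group plus 0.1 CPM. A member had a control median of 5 CPM or more, a CholCl median of at most 1/8 of control, a C12mimCl median between 1/2 and 2 times control, and a C2mimCl median above 1/2 of control. Every level relative to control given here was therefore part of the choice or close to it, and is a description with no test.

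The groups were Control (blank ASTM medium), C2mimCl (1-ethyl-3-methylimidazolium chloride), C12mimCl (the dodecyl homologue) and CholCl (cholinium chloride). The salts were used at EC20, a level with 20% of the measured effect. Its endpoint and the molar values are not stated in the labels. Neonates of brood 3, less than 10 h old, spent 48 h unfed in 3 vessels per group, and 90 animals still active at the end were pooled for each library. Libraries held 12502019 to 15539051 reads in genes. Whole animals were sequenced, so fewer cells of a type and less RNA per cell cannot be told apart.

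Choline is a nutrient from which animals make phosphatidylcholine, the neurotransmitter acetylcholine and the methyl donor betaine. Imidazolium salts with a long alkyl chain behave as surfactants and can enter membranes, whereas the ethyl homologue is far less lipophilic. All 3 salts share the chloride ion. The identifiers of the deposited counts were matched to none (0) of 28335 entries in the RefSeq gene table of another assembly, so the genes below carry no names and no sequence or function is given for them.

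Genes low after CholCl were far more numerous than these members. Of 10690 genes with a control median of 5 CPM or more, 956 (8.94%) were at 1/8 of control or less after CholCl. C12mimCl took 430 of the 956 to the same low range, and 98 more to between 1/8 and 1/2 of control. It left 351 between 1/2 and 2 times control, and 77 were at 2 times control or more. Of the 351 that C12mimCl left near control, 280 had a C2mimCl median at or below 1/2 of control, 76 of them at or below 1/8. The members are the other 71, or 7.43% of the genes low after CholCl. Genes lowered by CholCl alone were thus the smaller share of those that C12mimCl left near control. Which genes met the rule turned on single libraries: 23 and 25 did without CholCl replicates 1 and 2, of which 23 and 22 were members, and 127 and 118 without C2mimCl replicates 2 and 3, of which 51 and 48 were members.

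**Figure D1:**
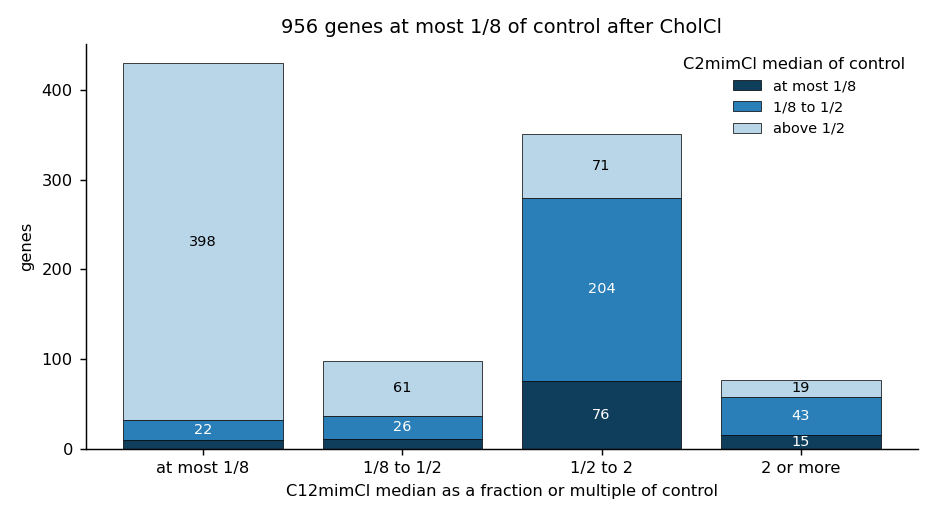
Genes (y axis) with a CholCl median of at most 1/8 of control, by their C12mimCl median (x axis) and their C2mimCl median (shading). The 71 members form the pale part of the third bar, above 280 genes that were also at or below 1/2 of control after C2mimCl.

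The members spanned control medians of 5.16 to 1877 CPM, with a median of 39.1 CPM. After CholCl their medians ran from 0.14 to 119 CPM, with a median of 2.51 CPM. The quartiles of the members were 5.12% and 9.81% of control after CholCl, and 29 of 71 were at or below 1/16. None was at 0 reads in any library (0 of 71). After C12mimCl the median member stood at 94.3% of control, with 38 below and 33 above it. After C2mimCl the median member stood at 68.4%, with 57 below control and 14 above, although the rule set only a lower limit there. Over the 10690 genes of the same control level these medians were 91.6% after CholCl, 95.4% after C12mimCl and 99.8% after C2mimCl. Of these genes, 5685 were below control after C12mimCl and 5386 after C2mimCl. The members were thus mostly lower after C2mimCl too, by less than the limit of the rule.

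The libraries of a group did not show the same picture. In CholCl replicates 1 and 2 the median member was at 6.24% and 5.33% of its control median, but in CholCl replicate 3 it was at 23.8%. Members at or below 1/8 of control numbered 70, 68 and 16 in these libraries. CholCl replicate 3 was the highest CholCl library for 63 of 71 members (88.7%), against 33.8% of the 10690 genes. This was not particular to the members, since it was also the highest for 394 of the 430 genes low after both C12mimCl and CholCl and for 218 of the 280 that C2mimCl lowered too. The members were at 1/8 of control or less in their medians by the rule, nearly all in CholCl replicates 1 and 2, and few in replicate 3. Every member had reads in every CholCl library, so none was at 0. For Dapma7bEVm003073 they were only 1, 2 and 2 reads, which cannot tell low expression from none.

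C2mimCl replicate 1 departed in the other direction. The median member was at 27.9% of control in it, against 84.3% and 77.6% in C2mimCl replicates 2 and 3. It held 46 members at or below 1/2 of control and 13 at or below 1/8, whereas replicates 2 and 3 held 7 and 2 at or below 1/2. Of the 10690 genes, 1043, 1240 and 1064 were at or below 1/2 in C2mimCl replicates 1, 2 and 3. In replicate 1, 184 of them were at or below 1/8. For 53 of 71 members (74.6%) C2mimCl replicate 1 was the lowest C2mimCl library, against 44.6% of the 10690 genes. Of the 430 genes low after both C12mimCl and CholCl it was the lowest for 389. Most members were thus low in 1 C2mimCl vessel, which the group median does not show.

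The same members were unevenly spread among unexposed vessels. Summed over the 71 genes, levels were 10601, 12563 and 20567 CPM in control replicates 1, 2 and 3. After C12mimCl the sums were 13885, 9038 and 24603 CPM, after C2mimCl 5326, 10722 and 10029 CPM, and after CholCl 775, 774 and 3634 CPM. Every CholCl library lay below all 9 others in this sum, with CholCl replicate 3 nearest to them. Abundant genes weigh most in such a sum. Gene by gene, CholCl lay below the other 9 libraries in 38 of 71 members, against 14.7% of the 10690 genes. The rule largely set this count. The coefficient of variation over the controls had a median of 40.2% among members and 16.5% among the 10690 genes. It was 40.2% and 43.8% in the sets of 430 and 280 genes, so a wide spread over controls was shared by genes low after CholCl.

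**Figure D2:**
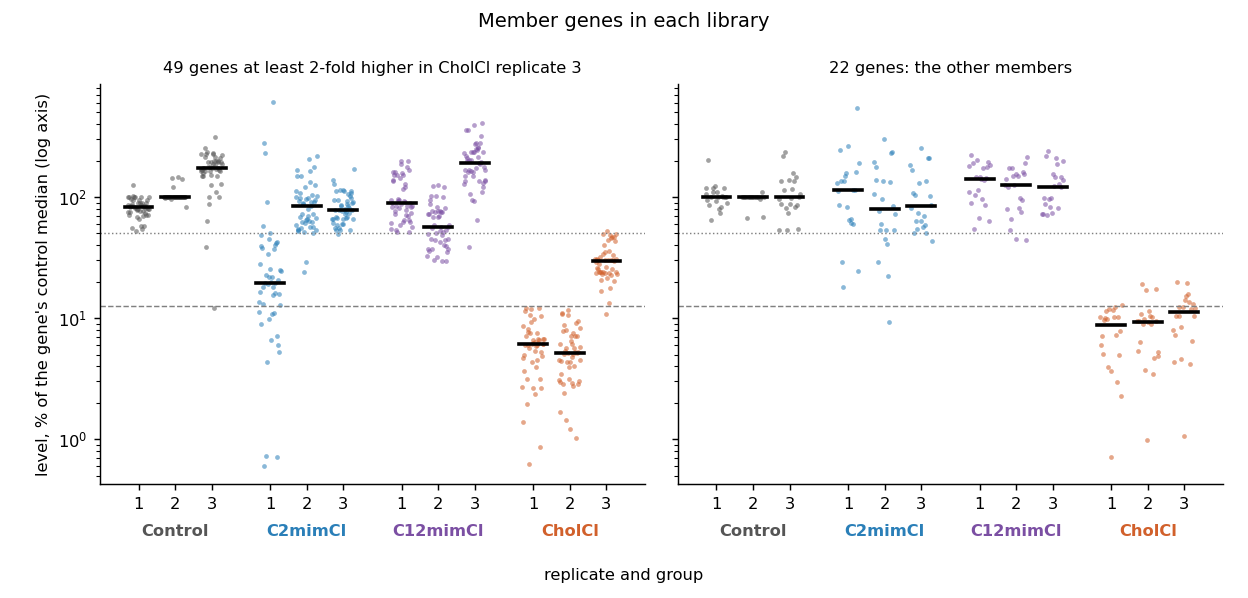
Level of each member gene in each of the 12 libraries as a percent of its control median (log y axis), as dots with the median as a bar; dashed line 1/8, dotted line 1/2. In the 49 genes on the left, CholCl replicate 3, C12mimCl replicate 3 and control replicate 3 are high and C2mimCl replicate 1 is low, which the 22 genes on the right do not show in their medians.

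The members were divided into 2 sets, formed after the values were seen and given no test. In 49 genes CholCl replicate 3 was at least 2-fold above both other CholCl libraries, and in 22 it was not. In the 49, median levels were 6.07%, 5.16% and 29.7% of control in CholCl replicates 1, 2 and 3. In the 22 they were 8.75%, 9.32% and 11.2%.

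The sets also parted in libraries that did not form them. Control replicate 3 was the highest control library for 43 of the 49 (87.8%) and for 10 of the 22 (45.5%). It was the highest for 42.1% of the 10690 genes. Its median level was 174% of the control median in the 49 and 99.2% in the 22. The uneven sums over controls came from the 49, at 8718, 10822 and 18890 CPM in control replicates 1, 2 and 3. Summed over the 22 they were 1883, 1741 and 1678 CPM. C12mimCl replicate 3 stood at 192% in the 49, against 89.4% and 56.4% in replicates 1 and 2, and at 122% in the 22, against 142% and 125%. In C2mimCl replicate 1, 43 of the 49 were at or below 1/2 of control, compared with 3 of the 22. Over the 10690 genes, 1043 were. By group medians, 45 of the 49 and 12 of the 22 were below control after C2mimCl.

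Across genes, which are not independent replicates and share these libraries, the departures went together. The log2 ratio of control replicate 3 to the mean of the other controls had Pearson's r = 0.51 with the same ratio for CholCl replicate 3 and 0.77 with that for C12mimCl replicate 3 (n = 71 genes). With C2mimCl replicate 1 over the other C2mimCl libraries it was -0.72. Over the 10690 genes the values were 0.19, 0.48 and -0.63, so the likeness was not limited to members. Within each of these pairs, the ratios have no library in common. C2mimCl replicate 3 over its group's other libraries, which include the low replicate 1, had r = 0.68 with control replicate 3 among members and 0.56 over the 10690 genes. By ranks (Spearman) these values were 0.43 and 0.50, so this likeness was not greater among members.

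**Figure D3:**
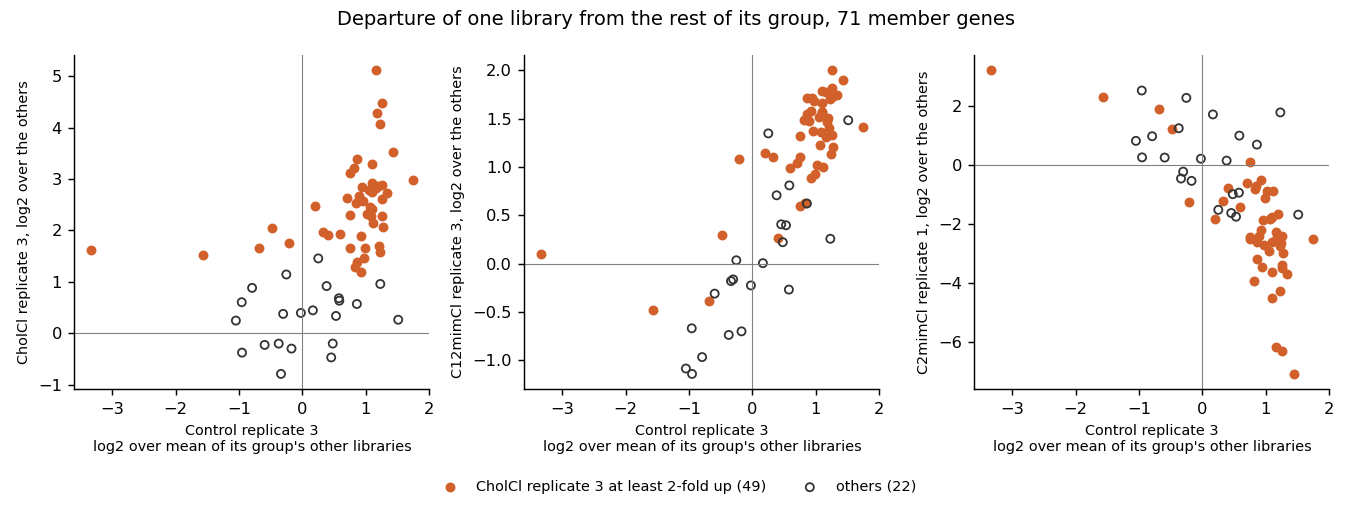
For each of the 71 members, the log2 ratio of 1 library to the mean of its group's other libraries, for control replicate 3 (x axes) against CholCl replicate 3, C12mimCl replicate 3 and C2mimCl replicate 1 (y axes). Filled points are the 49 genes at least 2-fold higher in CholCl replicate 3; most lie to the right of 0, and below 0 in the C2mimCl panel.

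A measure of the libraries moved with these departures. Reads that the counting assigned to no feature were 7.87%, 8.39% and 6.32% of the reads in control replicates 1, 2 and 3. They were 9.83%, 10.1% and 8.11% after C12mimCl and 5.83%, 5.51% and 5.25% after CholCl. After C2mimCl they were 7.61%, 5.83% and 6.14%. The library with the lowest share was the one in which members were highest in the control, C12mimCl and CholCl groups. The C2mimCl library with the highest share was the one in which members were lowest. The relation did not hold throughout: control replicate 2 had the highest share of the controls, but 50 of 71 members were lowest in control replicate 1. Between groups, CholCl had low shares together with the lowest members. Reads not aligned uniquely were also least frequent in replicate 3 of those groups (9.04%, 8.99% and 7.79%) and most frequent in C2mimCl replicate 1 (9.10%) within its group. In the direct comparison of the imidazolium salts, this share was fitted as a covariate and moved the members' values. Every C12mimCl library had a higher share than every C2mimCl library, so that fit cannot tell the share from the salt. Its part in the levels after CholCl and in controls was not tested.

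Of the 6 members with the highest control medians, 5 belonged to the 49 with a high CholCl replicate 3, called the variable set here. CPM is not corrected for transcript length, so this order ranks read numbers and not molecules. Dapma7bEVm018675, the member with the highest control median, had 1431, 1877 and 3493 CPM in the controls and 119, 115 and 570 CPM after CholCl. After C2mimCl it had 411, 1488 and 1347 CPM, and after C12mimCl 2205, 1430 and 4671 CPM. CholCl and control did not overlap, but its highest CholCl library exceeded its lowest C2mimCl library.

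Dapma7bEVm000632, Dapma7bEVm001254 and Dapma7bEVm010524 followed, with control medians of 1765, 1337 and 894 CPM. Their CholCl replicate 3 held 542, 453 and 465 CPM, against 47.8 to 87.8 CPM in the other CholCl libraries. C2mimCl replicate 1 held 237, 306 and 178 CPM of them, below CholCl replicate 3 in each case. Dapma7bEVm015235, the sixth in rank, had 43.3, 30.3 and 183 CPM after CholCl and 555, 695 and 1057 CPM in controls. The exception, Dapma7bEVm009540, had 986, 794 and 589 CPM in controls and 93.9, 135 and 97.6 CPM after CholCl. It was highest in control replicate 1, and C2mimCl replicate 1 was its highest library of all at 1255 CPM.

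The lowest ratios to control were of both kinds. Dapma7bEVm003073 had 362, 365 and 426 reads in controls, or 22.3, 24.1 and 33.6 CPM, and only 1, 2 and 2 reads after CholCl. The ratio of control to CholCl over summed reads was 213, with a 95% exact counting interval of 90.9 to 656, which covers counting error only. C12mimCl libraries had 16.1, 10.9 and 17.8 CPM, and C2mimCl libraries 19.8, 72.8 and 61.7 CPM. Its CholCl libraries stood at 0.72%, 0.98% and 1.07% of control, and it had the highest C2mimCl median relative to control (255%).

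Dapma7bEVm001857 was next by medians and illustrates the variable set. Its CholCl libraries had 2.44, 2.96 and 97.9 CPM, against 218, 296 and 572 CPM in controls. Its C2mimCl libraries had 2.01, 150 and 158 CPM, so that 1 C2mimCl library was below all CholCl libraries. After C12mimCl it had 207, 130 and 578 CPM. The fold of control over CholCl was 96.9 by medians but 10.8 over summed reads, because CholCl replicate 3 carried 1226 of its 1302 CholCl reads.

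Dapma7bEVm009922, Dapma7bEVm003194, Dapma7bEVm022025 and Dapma7bEVm014953 completed the lowest ratios, at 1.44%, 1.67%, 2.86% and 2.88% of control by medians. All were of the variable set. In CholCl replicate 3 they held 28.2, 11.6, 95.9 and 31.4 CPM, and in replicates 1 and 2 from 0.44 to 11.4 CPM. Dapma7bEVm009922 had 0.79 CPM in C2mimCl replicate 1 and 76.0 and 67.8 CPM in the others. The widest ranges over CholCl were those of Dapma7bEVm001857, Dapma7bEVm009922 and Dapma7bEVm003194, with highest-to-lowest ratios of 38.6, 37.0 and 21.5.

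**Figure D4:**
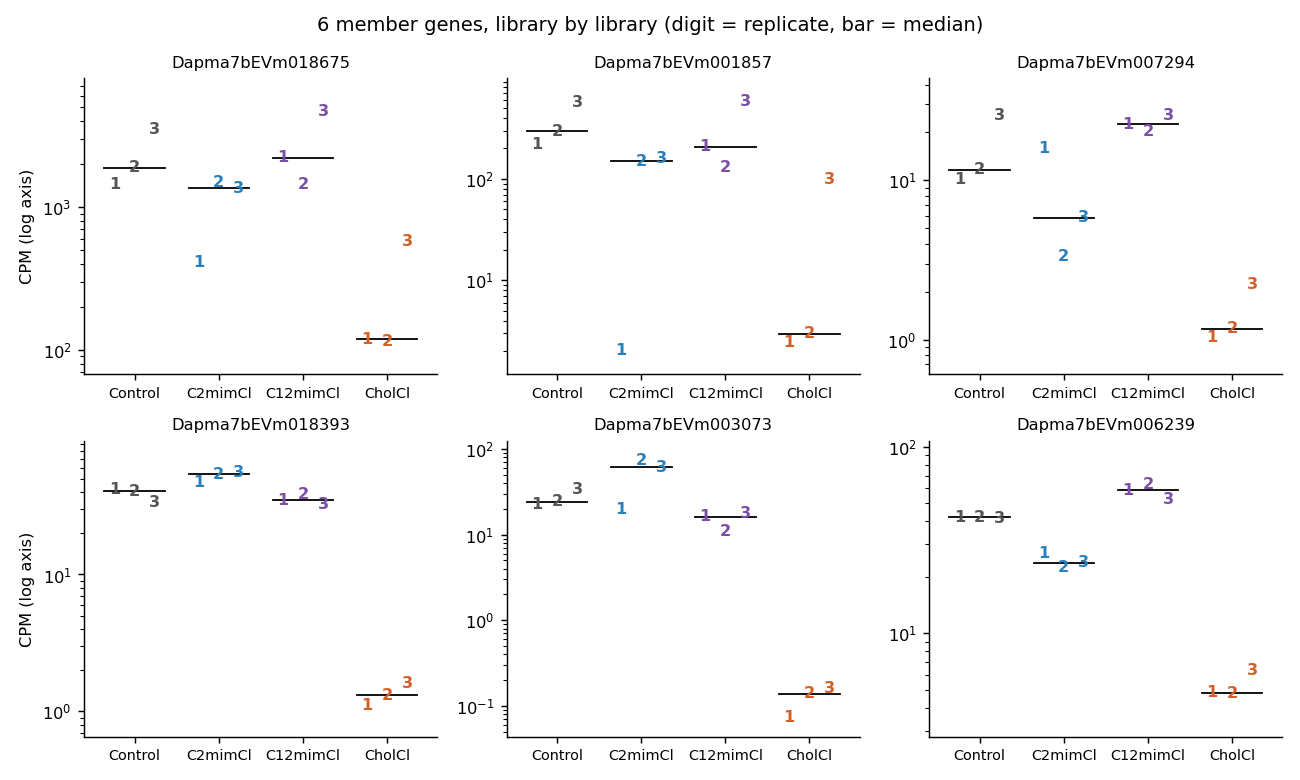
CPM (log y axes) of 6 members in the 12 libraries, each digit being a replicate and each bar a group median. Dapma7bEVm018675 and Dapma7bEVm001857 have replicate 3 high in 3 groups and C2mimCl replicate 1 low, whereas the CholCl libraries of Dapma7bEVm018393, Dapma7bEVm003073 and Dapma7bEVm006239 lie close together.

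Only 8 members met the pattern in every library, with all 3 CholCl libraries at or below 1/8 of the control median and all 6 imidazolium libraries above 1/2. They were named after their values were seen, as Dapma7bEVm000520, Dapma7bEVm003581, Dapma7bEVm004874, Dapma7bEVm007970, Dapma7bEVm009616, Dapma7bEVm015315, Dapma7bEVm018393 and Dapma7bEVm028965. Dapma7bEVm018393 was at 41.7, 40.6 and 33.3 CPM in controls and 1.11, 1.31 and 1.60 CPM after CholCl. It was at 46.7, 54.1 and 55.5 CPM after C2mimCl and 34.8, 38.5 and 32.7 CPM after C12mimCl. The CholCl libraries of this gene were far below the other 9, which differed by less than 2-fold among themselves.

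The CholCl condition was met in all 3 libraries by 12 members, and the imidazolium condition in all 6 libraries by 14. CholCl libraries lay below all other 9 libraries in 38 members, against 14.7% of the 10690 genes. They lay below all 3 controls in 70, against 36%. The rule largely set both counts. The exception was Dapma7bEVm000805, with 26.8, 38.9 and 3.15 CPM in controls and 1.48, 0.69 and 3.51 CPM after CholCl. Its C2mimCl replicate 1 had 164 CPM against 16.8 and 18.0 CPM in the others. The low control replicate 3 and the high C2mimCl replicate 1 were opposite to most of the variable set. The C12mimCl libraries of this gene lay close together, at 15.05 to 17.32 CPM.

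The controls differed most in Dapma7bEVm000805, with a highest-to-lowest ratio of 12, and then in Dapma7bEVm011848 and Dapma7bEVm010347, at 3.63 each. For both of the latter control replicate 3 was the high one, at 48.2 and 18.6 CPM. The most even controls were those of Dapma7bEVm006239, with 42.0, 42.0 and 41.3 CPM, and of Dapma7bEVm030545, with 11.8, 13.2 and 14.0 CPM. Their CholCl libraries had 4.80, 4.75 and 6.31 CPM and 1.62, 0.55 and 1.52 CPM.

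After C2mimCl, 3 members had a median at 2 times control or more. They were Dapma7bEVm003073, Dapma7bEVm007970 (211%) and Dapma7bEVm002819 (209%), followed by Dapma7bEVm000520 (183%). Dapma7bEVm007970 had 25.6, 24.6 and 37.4 CPM in controls, 29.5, 59.5 and 54.2 CPM after C2mimCl and 2.51, 1.10 and 2.95 CPM after CholCl. C2mimCl and CholCl thus lay on opposite sides of control in this gene, with C2mimCl replicate 1 inside the control range. The lowest C2mimCl medians were those of Dapma7bEVm007294 and Dapma7bEVm015235, at 50.1% and 50.3% of control. Dapma7bEVm007294 had 15.9, 3.31 and 5.82 CPM after C2mimCl, with replicate 1 the highest.

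Genes lay close to the limits of the rule on both sides. At the C2mimCl limit, Dapma7bEVm001647 and Dapma7bEVm006159 lay just outside, at 49.8% and 49.1% of control. At the CholCl limit, Dapma7bEVm009978 and Dapma7bEVm009540 were inside at 12.3% each, and Dapma7bEVm006576 and Dapma7bEVm000273 outside at 12.6% and 12.7%. At the lower C12mimCl limit, Dapma7bEVm009922 and Dapma7bEVm000814 were inside at 51.1% and 51.8%, and Dapma7bEVm010088 and Dapma7bEVm003377 outside at 48.6% and 47.0%.

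At the upper C12mimCl limit, Dapma7bEVm010991 and Dapma7bEVm030545 were inside at 199.8% and 199%, and Dapma7bEVm010790 and Dapma7bEVm000197 outside at 208% each. At the control limit, Dapma7bEVm011686 and Dapma7bEVm002819 were inside at 5.26 and 6.51 CPM, and Dapma7bEVm028929 and Dapma7bEVm001222 outside at 4.86 and 4.51 CPM, the added 0.1 included. Beyond that limit 17 genes met all other conditions. Beyond the upper C12mimCl limit there were 19.

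The 280 genes across the C2mimCl limit had a different profile over the C2mimCl vessels, given here without a test of the difference. In them C2mimCl replicate 1 was the high library, with a median of 53.0% of control against 15.5% and 20.2% in replicates 2 and 3. After CholCl they stood at 5.05%, 5.56% and 11.2% of control, and in control replicate 3 at 81.8%. C2mimCl replicate 1 was the highest C2mimCl library for 195 of these 280 genes and the lowest for 53 of the 71 members. The rule separates the sets by the C2mimCl median, and replicates 2 and 3 were close to each other in both. The choice itself therefore sets part of this contrast, and nothing about the genes is read from it.

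The imidazolium salts were compared directly, since the rule set each against control and not against the other. They differ in the alkyl chain, ethyl in C2mimCl and dodecyl in C12mimCl, and were given at matched effect levels, not at known matched concentrations. Of the 71 members, 7 were higher and 3 lower after C12mimCl than after C2mimCl (quasi-likelihood test of edgeR, Benjamini-Hochberg adjusted p below 0.05 over 15847 genes). Over all genes tested 45.1% were called, with 20.4% higher and 24.7% lower, against 9.86% and 4.23% of members. Because the rule kept both salts' medians within limits of control, nothing is read from this gap. The median log2 difference was 0.67 among members and 0.00246 over all genes tested. The members' median was 0.236 without C12mimCl replicate 3, and 2.79 with the percent of unassigned reads as a covariate.

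Dapma7bEVm006239 had the smallest p of the members higher after C12mimCl, at 58.6, 63.1 and 52.0 CPM against 26.9, 22.6 and 23.9 CPM after C2mimCl. The groups did not overlap, and the log2 difference was 1.26 with SE 0.13 (edgeR, adjusted p = 0.000106). C12mimCl was above the 3 controls and C2mimCl below them in every library. Dapma7bEVm009978 had 134, 75.2 and 161 CPM after C12mimCl and 50.1, 16.9 and 45.2 CPM after C2mimCl, a log2 difference of 1.74 with SE 0.45 (edgeR, adjusted p = 0.0109). Dapma7bEVm004272 had 157, 110 and 246 CPM against 44.4, 63.1 and 64.6 CPM, a log2 difference of 1.59 with SE 0.42 (edgeR, adjusted p = 0.0117).

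In the other direction, Dapma7bEVm003073 had a log2 difference of -1.77 with SE 0.41 (edgeR, adjusted p = 0.00637). All of its C12mimCl libraries were below its C2mimCl libraries, but with the percent of unassigned reads as a covariate the difference was -0.28 and the call was lost (edgeR, adjusted p = 0.715). Dapma7bEVm018393 differed by -0.54 with SE 0.14 (edgeR, adjusted p = 0.00988), and Dapma7bEVm000520 by -0.71 with SE 0.22 (edgeR, adjusted p = 0.0227). For Dapma7bEVm000520 the call was lost without C2mimCl replicate 2 (adjusted p = 0.0785), C2mimCl replicate 3 (0.0601) or C12mimCl replicate 3 (0.0698), and with upper-quartile scaling (0.0641). It was also lost on the 6 imidazolium libraries alone (0.0823). With the covariate the calls of Dapma7bEVm018393 and Dapma7bEVm000520 were lost too (edgeR, adjusted p = 0.0653 and 0.114). Of the 10 members called without the covariate, 5 were called with it, so some calls of members higher after C12mimCl were lost as well.

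For the other 61 members no difference between the salts was called, and the data set few bounds on it. The 95% interval lay within 2-fold either way for 2 of the 71, against 5988 of the 15847 genes tested. The median interval of the uncalled members ran from -1.03 to 2.32 on the log2 scale. In the 49 variable genes 3 were called (6.12%), and in the 22 others 7 (31.8%), against 45.1% of all genes tested. The median SE was 0.81 in the 49 and 0.39 in the 22. The fit estimates the spread of a gene over all groups, so the spread over CholCl that formed the sets enters these SEs. Nothing is therefore read from the difference between the sets. The number called was 5 without C2mimCl replicate 3 and 6 without C2mimCl replicate 2, C12mimCl replicate 1 or C12mimCl replicate 3. Without CholCl replicate 3 it was 15, with 12 higher. With the percent of unassigned reads as a covariate it was 37, of which 5 were among the 10. That was 52.1% of the members, above the 29.5% of all genes called in the same fit. Without the covariate the members' share was the lower one. Nothing is read from this gap either, since the rule bounds both salts and the covariate was higher in every C12mimCl library than in every C2mimCl library.

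**Figure D5:**
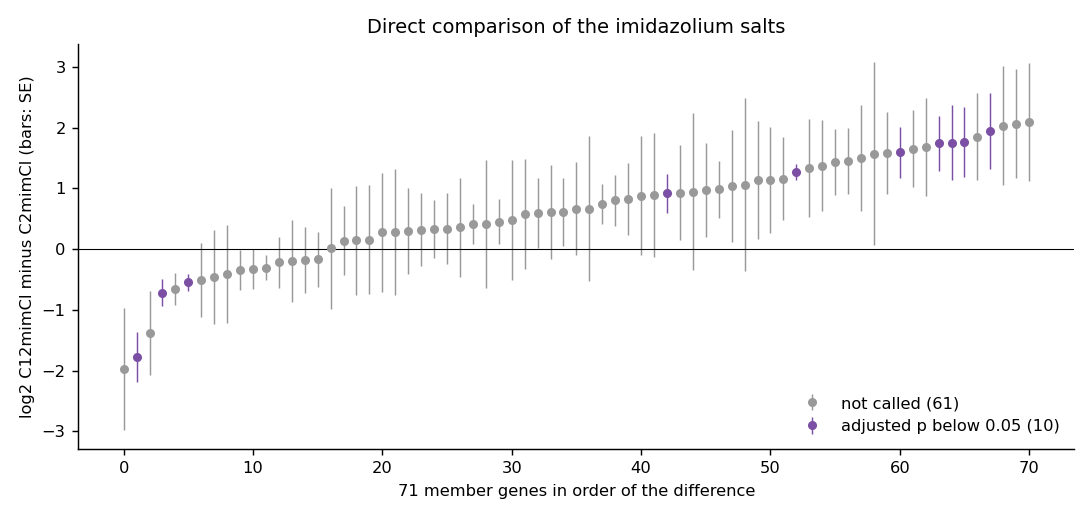
Log2 difference between C12mimCl and C2mimCl for each of the 71 members, in rising order, with the standard error as bars. The 10 called members are coloured, 7 above and 3 below 0; many uncalled members have errors as wide as the called differences.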

How the data were processed

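Reads per gene were counted in 12 libraries, 3 per group. The deposited counts are whole numbers without normalisation, in 46334 rows for genes; 5 summary rows were left out of library sizes and tests. Per the submitters' processing notes the tools were Trimmomatic 0.39, STAR 2.7.3a and HTSeq; build, annotation and strand setting are not stated there, so overlapping, antisense or near-identical genes are uncertain. Libraries came from separate vessels of animals of the same cultures.

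Members were found from TMM-scaled CPM by the rule stated in the results. The members and lists were chosen with earlier results of these data known. Named genes were those extreme in control level, CholCl ratio, C2mimCl ratio, spread over controls or over CholCl, or p between the imidazolium salts, and those next to each limit of the rule.

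C12mimCl and C2mimCl were compared in R 4.3.3 with edgeR 4.0.16 (filterByExpr with minimum count 10 and total 15, TMM, robust quasi-likelihood fit of the 12 libraries), checked on simulated data. The simulation drew each gene independently and changed far fewer genes than were called here. It therefore does not cover libraries that depart together across genes. DESeq2 1.42.0, limma-voom (limma 3.58.1), other scalings and filters, and leaving out each library were tried. Intervals use the test's degrees of freedom.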

Additional observations from a re-analysis of the deposited data

How the results depend on the processing

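Membership depended more on single vessels than on scaling. The rule gave 71 genes, and 58 to 72 with RLE or upper-quartile scaling, library totals, or TMM without the most abundant gene, with 50 to 63 of the members kept. It gave 29 with CholCl at most 1/16 of control and 189 at most 1/4. Leaving out 1 library gave 23 to 127 genes. The lowest counts were 23 and 25 without CholCl replicates 1 and 2, and the highest 127 and 118 without C2mimCl replicates 2 and 3; each leaves a median that takes in CholCl replicate 3 or C2mimCl replicate 1. With group means there were 80 genes, of which 32 were members. The 956 genes low after CholCl were 681 to 1032 when 1 library was left out.

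The 10 members called between the imidazolium salts (7 higher and 3 lower after C12mimCl) were 17 with DESeq2 (14 higher) and 37 with the percent of unassigned reads as a covariate (34 higher); the covariate fit called 29.5% of all genes and 52.1% of members. Higher members were 12 with limma-voom and 12 with upper-quartile scaling, under which the median over all genes tested was 0.167 on the log2 scale. Leaving out 1 library gave 5 to 15 called, with 3 to 12 higher and 2 to 4 lower. Fewest were called without C2mimCl replicate 3 (5), and 6 without C2mimCl replicate 2 or C12mimCl replicate 1 or 3. Most were called without CholCl replicate 3 (15). The cause was not tested. Same-numbered C2mimCl and C12mimCl libraries gave r = 0.18, -0.36 and 0.52 across genes for replicates 1, 2 and 3, so the numbers were not taken as pairs. The replicate 3 libraries deviated together in all 6 pairs of groups (r = 0.21 to 0.62). With the replicate number as a block 21 were called, 18 of them higher. The percent of unassigned reads was higher in every C12mimCl library than in every C2mimCl library, so the covariate fit cannot tell it from the salt. For single genes the covariate was chosen after seeing the data. The direction of the named members changed under none of the alternatives run. Counts near the floor limit Dapma7bEVm003073, with 5 reads over the CholCl libraries.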
